A study of Mus musculus with 12 samples.

Results

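Klb and the fibroblast growth factor (FGF) receptor genes Fgfr1, Fgfr2, Fgfr3, Fgfr4 and Fgfrl1 were followed in RNA-Seq libraries of mouse proximal colon. These 6 genes were taken by their symbols from the 55376 genes of the count table, and all 6 were among the 15952 genes that passed the filter on low counts. They were chosen with their log2 fold changes between EPR cKO and EPR fl/fl mice in these same 12 libraries in view, so that contrast is given for them as a description, with values and standard errors (SE) and with no test. Where members called in the fit over all genes are counted, nothing is read from the counts. The study asked how gene expression in the large intestine responds to loss of EPR, a long noncoding RNA of epithelial tissues that is listed in the count table as Smim31. Mice of both groups were homozygous for an EPR allele with loxP sites on either side of its promoter and first exon, from founders bred to C57BL/6. EPR cKO mice carried in addition a Cre transgene under the CDX2 promoter, which is active in epithelial cells from the end of the ileum to the colon. EPR fl/fl mice carried no Cre, so that the deletion and the presence of Cre cannot be told apart. Each group held 6 mice aged 12 weeks, with 1 library per mouse from the whole frozen wall of the proximal colon, so that epithelium is mixed with smooth muscle, blood vessels, nerves and fat.

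FGF receptors are receptor tyrosine kinases that pair up when an FGF and heparan sulfate bind them, and that signal through the adaptor FRS2 to the MAP kinase cascade. Most FGFs act near the cells that make them, but the endocrine members FGF15, FGF21 and FGF23 bind heparan sulfate weakly and need a klotho protein as co-receptor. Klb encodes beta-klotho, the co-receptor for FGF15 and FGF21, which works with the FGFR4 protein in liver and with the FGFR1 protein in fat. In the gut, bile acids acting through the nuclear receptor FXR (Nr1h4) make ileal enterocytes secrete FGF15, which reaches the liver and restrains bile acid synthesis. Fgfrl1 encodes a receptor that binds FGFs but has no kinase domain.

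The total count per library was between 13093904 and 30727736 in EPR fl/fl, against between 18468123 and 33211041 in EPR cKO. Smim31, the targeted gene, had between 297 and 1474 counts in EPR fl/fl, against between 0 and 10 in EPR cKO (log2 fold change −8.09, SE 0.47, adjusted p = 1.61e-06 by the quasi-likelihood test of edgeR with Benjamini-Hochberg adjustment). Over all tested genes, 392 passed an adjusted p under 0.05, of which 251 were lower and 141 higher in EPR cKO, or 247 and 39 with total counts in place of TMM. The epithelial marker Epcam was between 1071 and 1407 CPM (counts scaled to a common library total by the trimmed mean of M values, TMM) in EPR fl/fl, against between 1159 and 1740 in EPR cKO. All 8 epithelial markers had positive log2 fold changes, with a median of 0.28, and 0 of 8 passed the test (4 at an unadjusted p under 0.05). Of the 9 goblet cell markers, 6 passed the test and all 6 were lower. The library EPR cKO 1 stood apart from the other 5 of its group, with a smooth muscle marker Myh11 at 3194 CPM against 395 to 843. Without that library, 2273 genes were called lower and 1178 higher of 15836 tested, so that values with and without it are given for the 6 genes.

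All 6 genes were measured in every library, but at very different levels. Levels are compared between genes as RPKM, the TMM-scaled CPM per kilobase of the exon length in the count table. In EPR fl/fl, Fgfr2 was at 19.8 ± 2.67 RPKM (SD, n = 6) and Fgfrl1 at 13.6 ± 1.62. Fgfr3 and Fgfr1 followed at 5.44 ± 1.3 and 5.20 ± 1.09 RPKM. Fgfr4 was at 2.76 ± 0.639 RPKM, and Klb, the co-receptor, was lowest at 1.14 ± 0.401.

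This order was tested between neighbours by two-sided exact sign-flip permutation tests on the log2 RPKM difference within each EPR fl/fl library, for which 0.03125 is the smallest p that 6 libraries allow. The order, and so the pairs, came from the means of these same 6 libraries. The tests therefore measure only how steady each difference was between libraries, and do not cover errors in exon length or in shared exon bases. In all 6 libraries Fgfr2 exceeded Fgfrl1 (mean log2 difference 0.54), Fgfrl1 exceeded Fgfr3 (1.35), Fgfr1 exceeded Fgfr4 (0.92) and Fgfr4 exceeded Klb (1.33). Each of these 4 differences gave an exact p of 0.03125, adjusted over the 5 neighbour pairs to 0.0391. Fgfr3 and Fgfr1 did not differ beyond their spread: Fgfr3 was the higher in 3 of 6 libraries, with a mean log2 difference of 0.06 (SD 0.56, exact permutation p = 0.8125). Their order turned to −0.18 on the log2 scale when CPM was used without division by exon length.

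**Figure D1:**
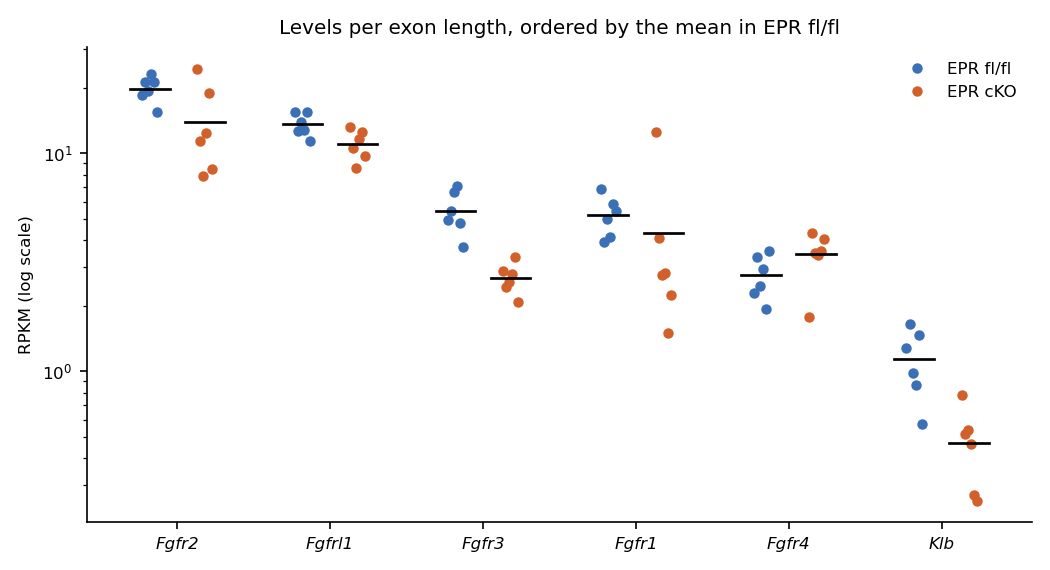
RPKM on a log axis for the 6 genes in order of their mean in EPR fl/fl, with 1 point per library and a line at the mean of each group. Fgfr2 and Fgfrl1 lie above 7 RPKM in every library and Klb lies under 2 RPKM in every library, while the EPR fl/fl points of Fgfr3 and Fgfr1 overlap.

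In EPR cKO the order of Fgfr1, Fgfr3 and Fgfr4 by their means was different, and was not tested. Fgfr2 and Fgfrl1 again stood highest at 13.9 ± 6.51 and 11.04 ± 1.75 RPKM (SD, n = 6). They were followed by Fgfr1 at 4.32 ± 4.10 RPKM, Fgfr4 at 3.44 ± 0.882 and Fgfr3 at 2.69 ± 0.428. Klb remained lowest at 0.470 ± 0.192 RPKM. The wide spread of Fgfr1 came with EPR cKO 1, which was at 12.5 RPKM.

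The members lie on 4 chromosomes, and exons of other genes lie over some of them. In the mm10 coordinates of the count table, Klb spans chr5:65348314-65384007 on the plus strand with 5 exons and 3540 exon bases, and Fgfr3 spans chr5:33721724-33737068 on the same strand with 19 exons and 4399 bases. Fgfrl1 lies at chr5:108694268-108706924, Fgfr4 at chr13:55152640-55168759 and Fgfr1 at chr8:25518759-25575718, all on the plus strand. Fgfr2 is on the minus strand, and its exons in the table extend over chr7:130162451-133123350. No other gene of the table lay over exons of Klb, Fgfr4 or Fgfrl1. The antisense gene G630022F23Rik overlapped 9.93% of the Fgfr3 exon bases, but had only 0 to 18 counts in any library against 173 to 962 for Fgfr3. Ctbp2, on the same strand as Fgfr2, overlapped 6.14% of its exon bases and had 729 to 1906 counts in any library, against 802 to 3632 for Fgfr2. The antisense gene Gm16159, with 0 to 3 counts, overlapped 3.14% of the Fgfr1 exon bases. Whether the counting used the strand is not given in the sources used here, so reads in the stretches shared with antisense genes are uncertain. Reads in the stretch shared by Ctbp2 and Fgfr2 are uncertain too, since the strand cannot separate genes on the same strand. Counts are per gene, and splice forms that bind different ligands were not separated.

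The upstream sequences of Klb and Fgfr3 are shown because these were the members that differed most between the groups. They come from RefSeq (GRCm38.p6), run 5′ to 3′ on the plus strand, and end at the base before the first exon of the count table. Capitals mark a CCAAT box (CCAAT) or a GC box (GGGCGG) on either strand.
Klb, chr5:65348161-65348313: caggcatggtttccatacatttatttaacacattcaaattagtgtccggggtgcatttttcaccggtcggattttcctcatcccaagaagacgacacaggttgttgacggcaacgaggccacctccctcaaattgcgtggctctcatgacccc
Fgfr3, chr5:33721474-33721723: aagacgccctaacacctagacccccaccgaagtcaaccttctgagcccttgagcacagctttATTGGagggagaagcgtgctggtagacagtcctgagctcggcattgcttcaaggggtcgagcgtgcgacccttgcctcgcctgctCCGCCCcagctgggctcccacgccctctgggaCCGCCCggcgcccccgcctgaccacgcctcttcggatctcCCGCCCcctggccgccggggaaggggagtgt
The Fgfr3 window shown, of 250 bases, was 66.8% G and C and held a CCAAT box at -188 from the start and GC boxes at -103, -71 and -31. RefSeq also gives a later Fgfr3 start, at 33722306. The 250 bases before it were 72.8% G and C, with GC boxes at -87 and -82 and no CCAAT box. RefSeq places a Klb start 97 bases inside the first exon of the table, and neither motif, nor a TATA box (TATAAA), was in the 250 bases before that start. Among 32851 RefSeq promoter windows of 250 bases, 33.9% held a CCAAT box, 32.7% a GC box and 12.4% a TATA box. These matches describe the letters of the windows only.

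Klb was lower in EPR cKO. It had 2.04 CPM in the lowest EPR fl/fl library, a median of 4.00 and 5.83 in the highest, against a lowest value of 0.903, a median of 1.73 and a highest of 2.75 in EPR cKO. The groups overlapped through EPR fl/fl 6, the lowest control, and EPR cKO 1, the highest knockout library, while the other 5 libraries of EPR cKO lay under every EPR fl/fl library. The mean was 4.03 ± 1.42 CPM against 1.66 ± 0.681 (SD, n = 6 each), and the log2 fold change was −1.28 (SE 0.31), or 2.43-fold lower. In whole tissue, fewer cells of a type and less RNA per cell cannot be told apart. Klb rested on few reads, with between 38 and 180 counts in EPR fl/fl, against between 17 and 50 in EPR cKO. The exact 95% Poisson interval of the smallest count, 17 in EPR cKO 6, was 9.90 to 27.2, and such intervals cover counting error only. Without EPR cKO 1 the log2 fold change of Klb was −1.49.

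Fgfr3 was lower in EPR cKO in every library. Its lowest, median and highest values were 16.4, 22.8 and 31.2 CPM in EPR fl/fl and 9.19, 11.8 and 14.7 CPM in EPR cKO. The groups did not overlap, and the highest EPR cKO library, EPR cKO 5, lay under the lowest control, EPR fl/fl 6. The mean was 24.0 ± 5.51 CPM against 11.8 ± 1.88 (SD, n = 6 each), a log2 fold change of −1.02 (SE 0.16), or 2.03-fold lower. Without EPR cKO 1 it was −1.06. Fgfr3 encodes a receptor best known for restraining growth of cartilage and, in the developing intestine, for its expression in crypts.

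Fgfr2, whose epithelial splice form receives FGF7 and FGF10 from the mesenchyme, was spread widely in EPR cKO. It was at 79.0, 104 and 118 CPM (lowest, median and highest) in EPR fl/fl and at 40.1, 60.8 and 125 CPM in EPR cKO. In EPR cKO 4 of 6 libraries lay under every control, while EPR cKO 5 lay within the controls at 97.1 CPM and EPR cKO 1 lay above them. The log2 fold change was −0.51 (SE 0.25), and −0.76 without EPR cKO 1.

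Fgfr1, a receptor of mesenchymal cells and fat, was the most uneven of the 6 genes. Its lowest, median and highest values were 20.4, 27.3 and 35.6 CPM in EPR fl/fl and 7.84, 14.6 and 65.2 CPM in EPR cKO. EPR cKO 1 lay above every control, EPR cKO 2 lay within them at 21.4 CPM and the other 4 lay below. The log2 fold change was −0.27 (SE 0.43), and −0.97 without EPR cKO 1.

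Fgfrl1, the receptor without a kinase, was at 29.7, 34.6 and 40.0 CPM in EPR fl/fl and at 22.2, 28.7 and 34.3 CPM in EPR cKO (lowest, median and highest). The groups overlapped, with 3 of the 6 EPR cKO libraries under the lowest control. Its log2 fold change was −0.30 (SE 0.11), and −0.38 without EPR cKO 1.

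Fgfr4, the receptor partner of beta-klotho in liver, was the member with a positive log2 fold change, 0.32 (SE 0.20). It was at 6.44, 8.99 and 11.9 CPM in EPR fl/fl and at 5.93, 11.8 and 14.3 CPM in EPR cKO (lowest, median and highest). EPR cKO 1 held the lowest value of all 12 libraries, and the other 5 libraries of EPR cKO lay between 11.4 and 14.3 CPM, near the highest controls. Without EPR cKO 1 the log2 fold change was 0.43.

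**Figure D2:**
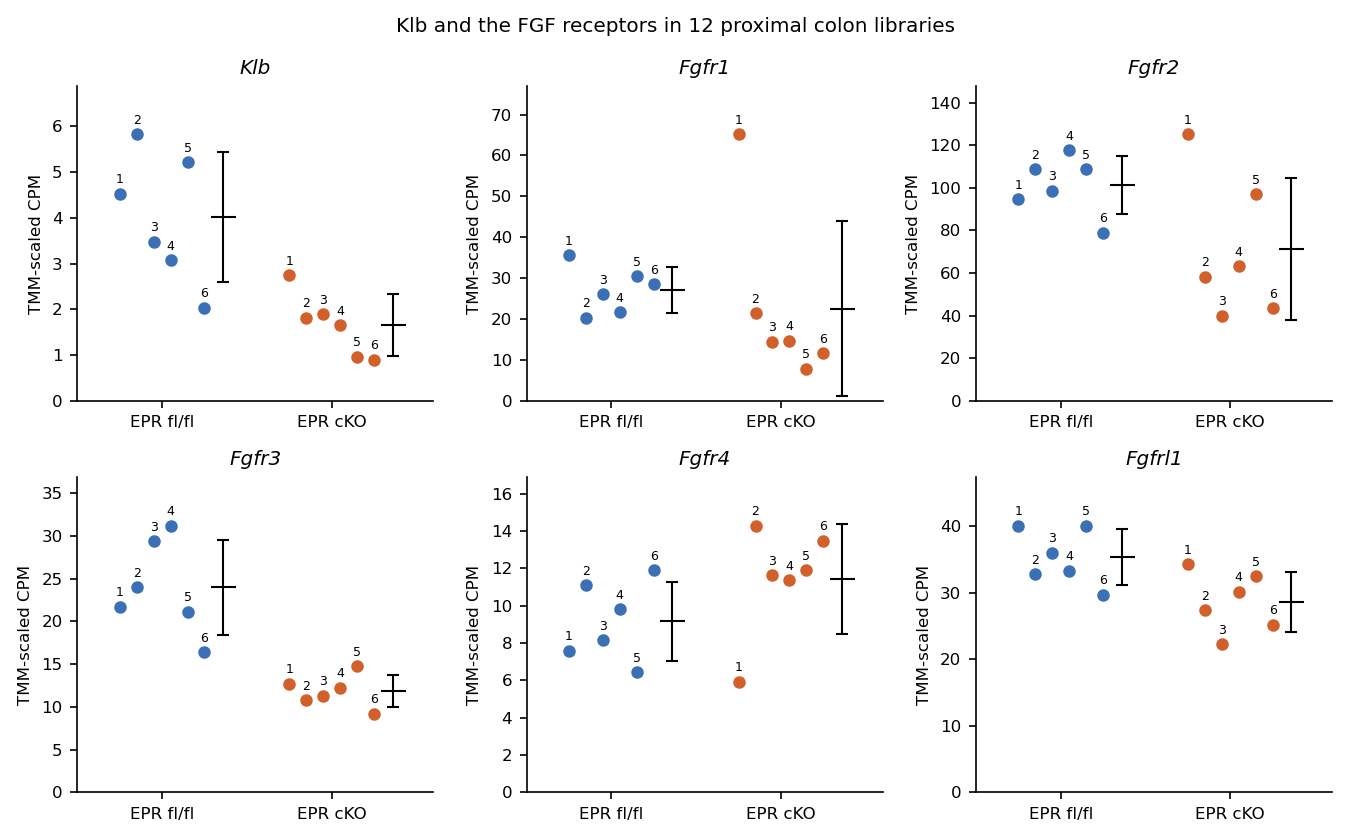
TMM-scaled CPM of each gene in every library, with replicate numbers beside the points and the mean ± SD of each group at the right of its points. Fgfr3 is separated between the groups, Klb overlaps through EPR fl/fl 6 and EPR cKO 1, and EPR cKO 1 is far above the rest of its group for Fgfr1 and below it for Fgfr4.

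At an adjusted p under 0.05, 2 of the 6 members, Klb and Fgfr3, were called, both lower, where 2.46% of all tested genes were called in either direction, 1.57% lower and 0.884% higher. The groups did not overlap for 1 of 6 members, Fgfr3, against 2.47% of all tested genes, 1.47% lower and 1.00% higher. The study set stricter thresholds on the adjusted p and on the log2 fold change, for a statistic that it calls Bayesian. Applied here to the edgeR test instead, these thresholds called 0 of 6 members and 0.169% of all genes. Without EPR cKO 1, 5 of 6 members were called, all lower and all but Fgfr4, where 14.4% of all genes tested were called lower. Klb was no longer called when any 1 library other than EPR fl/fl 6 or EPR cKO 1 was left out. The members were chosen on this contrast, so nothing is read from these counts. The median log2 fold change over the 6 members was −0.40, and over all tested genes it was 0.02.

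The kinase receptors were also described by the share of each in their sum. The sum of Fgfr1 to Fgfr4 was 33.2 ± 2.91 RPKM in EPR fl/fl, against 24.4 ± 9.35 in EPR cKO (SD, n = 6 each), and it ranged in EPR cKO from 16.7 to 41.7, the latter in EPR cKO 1. Fgfr2 made up 59.4% ± 3.45 of this sum in EPR fl/fl, against 55.7% ± 8.0 in EPR cKO. The share of Fgfr3 was 16.3% ± 2.70 against 11.8% ± 2.81, and that of Fgfr4 was 8.42% ± 2.49 against 16.3% ± 7.01. Fgfr3 thus exceeded Fgfr4 in all 6 EPR fl/fl libraries, whose Fgfr4 to Fgfr3 ratio was 0.368 to 0.960, whereas Fgfr4 exceeded Fgfr3 in 5 of 6 EPR cKO libraries. The exception was EPR cKO 1, with a ratio of 0.619. These shares rest on the contrast that chose the members and are given with no test.

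Markers of other cell types moved with some of the members. All 9 adipocyte markers had negative log2 fold changes, with a median of −1.37, although 0 of 9 passed the edgeR test (7 of 9 at an unadjusted p under 0.05, 1 of 9 with DESeq2 and 1 of 9 with limma-voom). Their summed level was between 571 and 1641 CPM in EPR fl/fl, against between 85.5 and 1230 in EPR cKO, the latter in EPR cKO 1. None of the 9 was at 0, and Adipoq, the adipocyte hormone adiponectin, was at 58.0 to 181 CPM in EPR fl/fl, against 4.10 to 99.1 in EPR cKO. The adipocyte score, the mean log2 CPM of the 9 markers, was 6.24 ± 0.64 in EPR fl/fl, against 4.46 ± 1.36 in EPR cKO (SD, n = 6 each). It was taken up after the markers had been seen, so this difference is given with no test. The 8 smooth muscle markers had a median log2 fold change of −0.55, 0 of 8 passed the edgeR test, DESeq2 or limma-voom (0 of 8 at an unadjusted p under 0.05), and their summed level was 3060 to 5378 CPM in EPR fl/fl, against 994 to 9179 in EPR cKO, again highest in EPR cKO 1. Without EPR cKO 1, all 9 adipocyte and all 8 smooth muscle markers passed the edgeR test as lower. So did 8 of 9 goblet cell, 4 of 6 endothelial and 5 of 7 enteric neuron and glia markers. Fewer were called lower among fibroblast (2 of 7) and immune cell (1 of 7) markers. In the other direction, 4 of 8 epithelial and 2 of 8 enterocyte markers were called higher. This was the same fit in which 5 members were called. That fit called 14.4% of all tested genes lower, and 1178 genes higher. The part of these cell types in the differences of the members between the groups was not tested. The covariate fits given below cannot test it, since a score and the group share part of their variation.

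Klb went with the adipocyte score within the groups. With group means removed, so that the contrast does not enter, log2 CPM of Klb had Pearson's r = 0.84 (permutation p = 0.00087) and Spearman's rho = 0.82 (permutation p = 0.00331) with the score over 12 libraries. Adjusted over the 6 members, these were 0.00522 and 0.0198. Pearson's r was 0.82 without EPR cKO 1 and EPR cKO 5, the libraries farthest from the median score, 0.81 within EPR fl/fl and 0.91 within EPR cKO. With the adipocyte score as a covariate of the fit, the log2 fold change of Klb was −0.51 in place of −1.28, and 1 of 6 members, Fgfr3, was called, where 0.790% of all genes were called lower. The score itself differed between the groups, so the covariate and the group share part of their variation. This score was added after the data were seen, whereas the tissue score, defined in the next paragraph, was planned. With the tissue score and group means removed, r of Klb was −0.59 (permutation p = 0.0440, adjusted over 6 members 0.125). Its rho was −0.47 (permutation p = 0.141, adjusted 0.422). This r was 0.40 within EPR fl/fl, −0.89 within EPR cKO and −0.25 without EPR cKO 1 and EPR cKO 5. With the tissue score as a covariate, the log2 fold change of Klb was −0.97.

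Fgfr1 went with both tissue measures. Against the tissue score, the mean log2 CPM of 8 epithelial markers minus that of the 8 smooth muscle markers, Fgfr1 had r = −0.95 (permutation p = 0.00065, adjusted over 6 members 0.0039) and rho = −0.84 (permutation p = 0.0035, adjusted 0.021) with group means removed. This r was −0.98 within EPR cKO and −0.52 within EPR fl/fl. Without EPR cKO 1 and EPR cKO 5, r was −0.70. Its r with the adipocyte score was 0.88 (permutation p = 0.00226, adjusted 0.00678), or 0.61 without these 2 libraries, 0.93 within EPR cKO and 0.54 within EPR fl/fl. With the mean of the epithelial markers alone, r of Fgfr1 was −0.71 (permutation p = 0.0505, adjusted 0.0739), but 0.32 within EPR fl/fl and −0.18 without EPR cKO 1. The log2 fold change of Fgfr1 changed sign, to 0.27 with the tissue score and 0.56 with the adipocyte score as a covariate.

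For Fgfr3 no relation with the tissue score or the adipocyte score was detectable. Its r was −0.02 with the tissue score (permutation p = 0.936, adjusted 0.936) and −0.09 with the adipocyte score (permutation p = 0.773, adjusted 0.773). With the mean of the epithelial markers alone, however, r was −0.54 (permutation p = 0.0616, adjusted 0.0739), −0.93 within EPR fl/fl, −0.27 within EPR cKO and −0.66 without EPR cKO 1. This was not particular to Fgfr3. With the same mean, r was −0.62 for Klb, −0.66 for Fgfr2, 0.73 for Fgfr4 and −0.55 for Fgfrl1. Their adjusted permutation p was 0.0739, or 0.0962 for Fgfrl1. Without EPR cKO 1 these were −0.44, −0.31, 0.36 and −0.34. The log2 fold change of Fgfr3 was −1.02 with the tissue score and −1.09 with the adipocyte score as a covariate. For Fgfr4, r was 0.70 with the tissue score (permutation p = 0.0625, adjusted 0.125) and −0.69 with the adipocyte score (permutation p = 0.0275, adjusted 0.055), the former falling to 0.15 without EPR cKO 1 and EPR cKO 5. The latter was −0.63 without these 2 libraries and −0.38 without EPR cKO 1 alone. It was −0.75 within EPR fl/fl and −0.70 within EPR cKO. The log2 fold change of Fgfr4 was −0.04 and −0.13 with these scores as a covariate. Fgfr2 and Fgfrl1 had adjusted p-values between 0.438 and 0.651 in the same permutation tests of r. The r of Fgfrl1 with the adipocyte score was 0.39, but 0.87 within EPR fl/fl and 0.24 within EPR cKO. It was 0.75 without EPR cKO 1 and EPR cKO 5, and 0.12 without EPR cKO 1 alone.

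**Figure D3:**
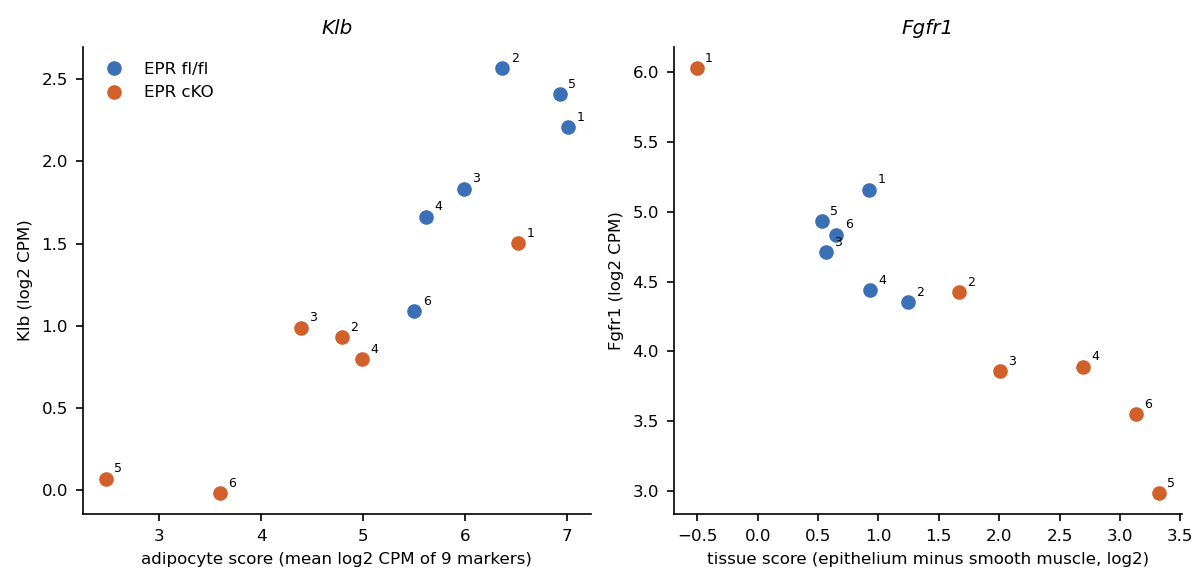
Log2 CPM of Klb against the adipocyte score (left) and of Fgfr1 against the tissue score (right), with 1 point per library and replicate numbers beside the points. Klb rises with the score within each group, and for Fgfr1 EPR cKO 1 and EPR cKO 5 mark the ends of the line.

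The genes most like Klb were found by Pearson's r of log2 CPM over the 12 libraries among 15951 other tested genes. With group means kept, they were Ebf2 (0.95), a transcription factor of adipocyte precursors, Prxl2a (0.95), Sbsn (0.94), B3galt2 (0.93) and Klhdc7a (0.93). With group means removed, they were 9630013D21Rik (0.93), Prxl2a (0.93), Efhd1 (0.93), Ebf2 (0.90) and Trhde (0.89). Adipoq ranked 15 by the former and 59 by the latter, whereas Fgfr3 ranked 931 and 5891, with r of 0.74 and 0.19. The former ranks contain the contrast between the groups, and all points of a gene share the library and its depth.

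The endocrine FGFs were barely detected in this tissue. Fgf15, which like Fgf21 uses beta-klotho, had 0 to 2 counts in any library, and Fgf21 and Fgf23 had 0 to 1. Kl, which encodes alpha-klotho, the co-receptor of FGF23, had 0 to 15 counts. Of 18 FGF ligand genes, 5 passed the filter (Fgf1, Fgf2, Fgf7, Fgf9 and Fgf10), and 0 of 5 passed the edgeR test, DESeq2 or limma-voom (1 at an unadjusted p under 0.05, higher). Fgf1, a ligand of all the kinase receptors, was the highest at 4.64 ± 1.13 RPKM in EPR fl/fl (SD, n = 6), and differed by −0.38 on the log2 scale (SE 0.20, adjusted p = 0.33). Fgf7, a mesenchymal ligand of the epithelial FGFR2 form, had 0.58 (SE 0.20, adjusted p = 0.155), and Fgf2 at 1.59 ± 0.418 RPKM had −0.50 (SE 0.38, adjusted p = 0.501). Fgf2 was called with EPR cKO 1 left out, at −1.0 (adjusted p = 0.0213).

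Other modulators of the receptors gave 0 calls with all libraries, and calls that came without EPR cKO 1. Over all 15836 genes tested, the fit without EPR cKO 1 called 14.4% lower, and 1178 genes higher. Of 8 genes of the klotho family and receptor modulators 6 were tested and 0 passed edgeR, DESeq2 or limma-voom (2 at an unadjusted p under 0.05). Lctl, a klotho relative, differed by −1.53 on the log2 scale (SE 0.59, adjusted p = 0.195), and by −2.40 without EPR cKO 1 (adjusted p = 0.00485), when 3 genes of this list were called lower. Fgfbp1, which releases FGFs from the matrix, and Flrt3, a membrane protein that binds FGF receptors, were at 33.1 ± 3.44 and 16.5 ± 4.21 RPKM in EPR fl/fl, with log2 fold changes of 0.21 (SE 0.14, adjusted p = 0.43) and 0.34 (SE 0.15, adjusted p = 0.252). Of 26 heparan sulfate proteoglycans and enzymes 22 were tested and 0 passed any of these 3 tests (3 at an unadjusted p under 0.05). Their highest members were the syndecans Sdc4 and Sdc1 at 109 ± 6.95 and 71.9 ± 8.32 RPKM, with log2 fold changes of −0.07 (SE 0.08, adjusted p = 0.681) and 0.17 (SE 0.12, adjusted p = 0.45), and the largest difference was that of the glypican Gpc3 (−0.85, SE 0.58, adjusted p = 0.448). Gpc3 moved to −1.82 without EPR cKO 1 (adjusted p = 0.00672), when 6 genes of the list were called lower and 1 higher. Of the 4 FGF homologous factors, which stay inside the cell and do not bind these receptors, 3 were tested and 0 passed any of the 3 tests (0 at an unadjusted p under 0.05). Fgf11 was the highest at 1.54 ± 0.391 RPKM and Fgf13 differed most, by −0.68 on the log2 scale (SE 0.52, adjusted p = 0.503), or by −1.57 without EPR cKO 1 (adjusted p = 0.00537).

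Downstream of the receptors, none of the cascade genes passed the edgeR test, while 2 genes of the feedback inhibitor and target list did, in opposite directions. Over the 7 pathway lists together, 2 of 74 tested genes passed, a share near the 2.46% of all tested genes. All 19 adaptor and MAP kinase genes were tested and 0 passed edgeR or limma-voom (3 at an unadjusted p under 0.05), with a median log2 fold change of 0.04. Mapk3 and Map2k1, the kinase pair at the end of the cascade, were the highest at 87.5 ± 8.50 and 62.7 ± 8.60 RPKM, with log2 fold changes of 0.24 (SE 0.09, adjusted p = 0.172) and 0.33 (SE 0.09, adjusted p = 0.0782), and Map2k1 was the 1 gene of this list that DESeq2 called. With EPR cKO 1 left out, Map2k1 was among 2 genes of the list called higher, and 1 was called lower. Over all 15836 genes tested, that fit called 1178 higher and 2273 lower. The adaptor Frs3 had −0.40 (SE 0.22, adjusted p = 0.351).

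Etv5, a transcription factor induced by FGF signalling, fell in EPR cKO. It was at 35.9, 38.3 and 70.1 CPM (lowest, median and highest) in EPR fl/fl and at 16.1, 22.0 and 25.4 CPM in EPR cKO. The groups did not overlap, and the difference was −1.07 on the log2 scale (SE 0.18, adjusted p = 0.00566), or −0.89 without EPR fl/fl 3, the highest library. Etv5 passed the edgeR test with any 1 of the 12 libraries left out.

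Dusp4, a phosphatase that acts on MAP kinases, rose in EPR cKO. It was at 5.47, 6.80 and 8.49 CPM in EPR fl/fl and at 8.56, 10.1 and 10.9 CPM in EPR cKO (lowest, median and highest), with no overlap. The difference was 0.52 on the log2 scale (SE 0.12, adjusted p = 0.0437), and the call held in 2 of the 12 fits with 1 library left out, those without EPR fl/fl 2 or EPR cKO 1. It also held under 4 of 9 alternatives with all libraries, and was lost with total counts, no filter, the replicate block, the tissue score or the adipocyte score. Etv4, a relative of Etv5, had a log2 fold change of 1.07 in the other direction (SE 0.32, adjusted p = 0.0991), which DESeq2 called, and 1.21 without EPR cKO 1 (adjusted p = 0.00784). The list held 13 genes, of which 12 were in the table and tested. The phosphatase Dusp6 and the feedback inhibitor Spry2 were the highest at 20.5 ± 7.90 and 11.5 ± 1.67 RPKM in EPR fl/fl, and had log2 fold changes of 0.04 (SE 0.24, adjusted p = 0.935) and 0.10 (SE 0.12, adjusted p = 0.66).

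Most genes of the bile acid side of the Fgf15 axis passed the filter, while Fgf15 itself was barely detected. Nr0b2, a gene of this list, was not tested, with 0 to 2 counts in any library. Of 9 genes, 7 were tested and 0 passed edgeR or limma-voom (2 at an unadjusted p under 0.05). The bile acid importer Slc10a2 and the vitamin D receptor Vdr were the highest at 76.7 ± 21.3 and 69.8 ± 8.64 RPKM in EPR fl/fl, with log2 fold changes of −0.14 (SE 0.17, adjusted p = 0.673) and 0.09 (SE 0.09, adjusted p = 0.63). Fabp6, the bile acid binding protein of the ileum, was at 2.34, 5.00 and 17.3 CPM in EPR fl/fl and at 0.439, 1.74 and 2.34 CPM in EPR cKO (lowest, median and highest), with no overlap by a narrow margin. The difference was −2.02 on the log2 scale (SE 0.50, adjusted p = 0.0515), and it was called by DESeq2 and, at −1.85, without EPR cKO 1 (adjusted p = 0.0165).

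**Figure D4:**
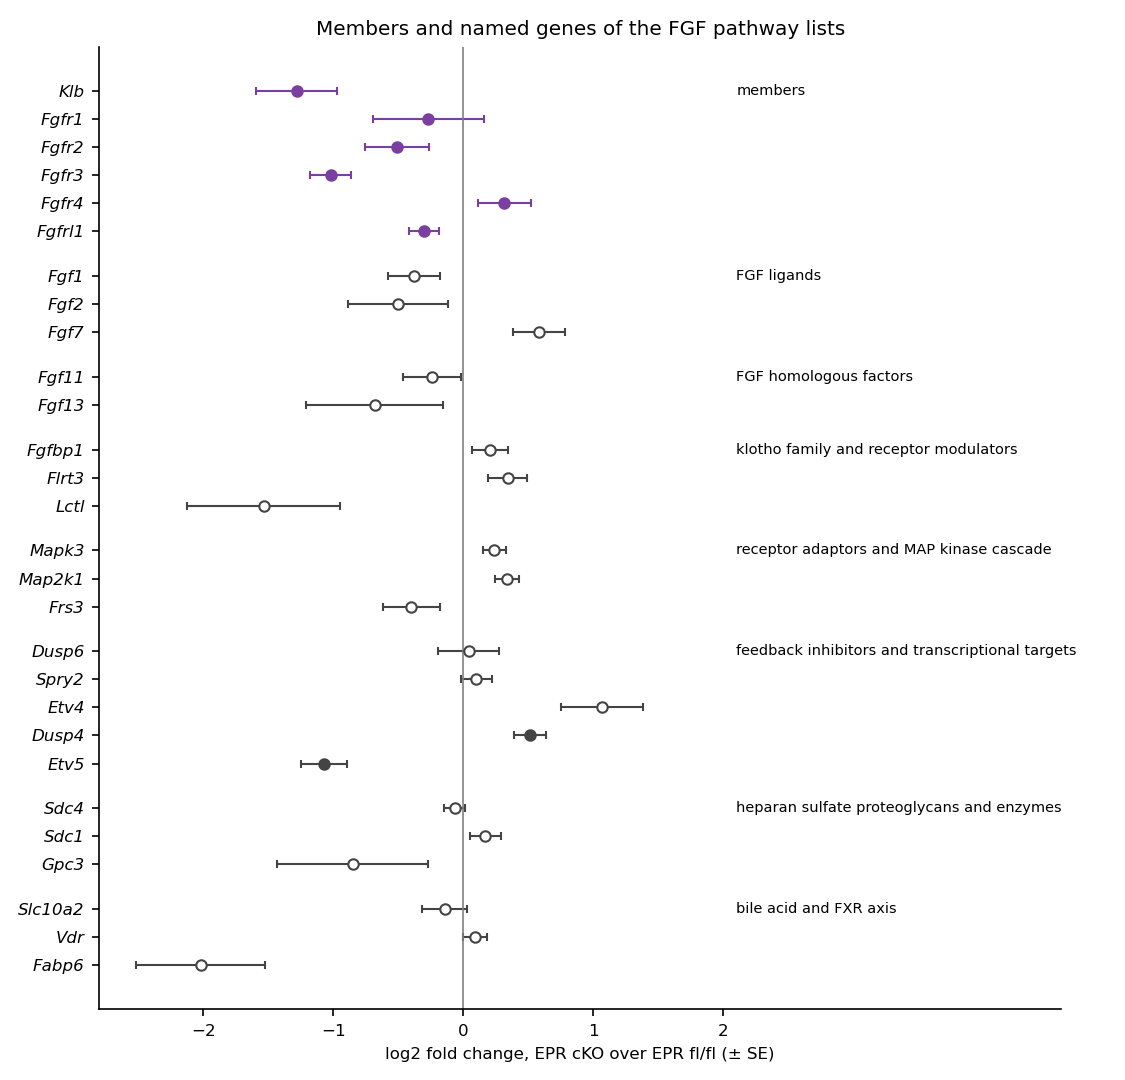
Log2 fold change (EPR cKO over EPR fl/fl) with its SE for the 6 members (purple) and named genes of the 7 pathway lists, over 6 libraries per group. Filled black points passed an adjusted p under 0.05 and open points did not. Etv5 lies near Fgfr3 at −1.07 and −1.02, and Dusp4 at 0.52.

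The log2 fold changes of the members were set beside each other under every other scaling, filter and test and without each library. That of Fgfr3 lay between −1.11 and −0.93 with any 1 library left out, and that of Klb between −1.49 and −1.14. Fgfr1 ranged from −0.97 to −0.09, Fgfr2 from −0.76 to −0.39, Fgfr4 from 0.23 to 0.43 and Fgfrl1 from −0.38 to −0.24. Each gene kept its sign in all 12 of these fits.

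**Figure D5:**
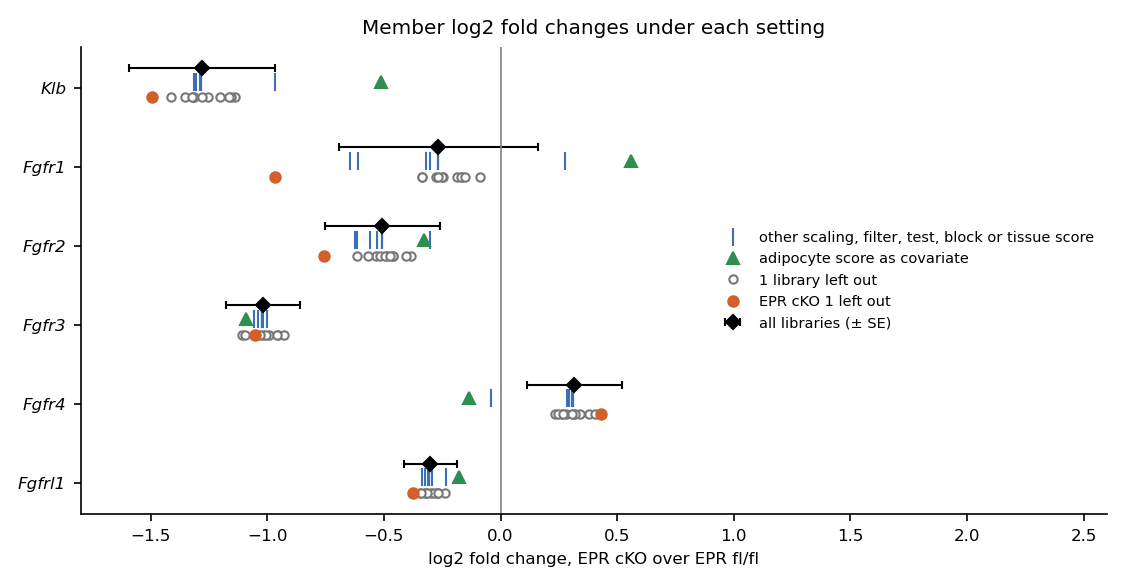
Log2 fold change of each member with all libraries (diamond, ± SE), under other scalings, filters, tests, the replicate block or the tissue score (ticks), with the adipocyte score as a covariate (triangle) and with 1 library left out (circles, EPR cKO 1 filled). Fgfr3 stays near −1 throughout, Klb moves to −0.51 and Fgfr1 to 0.56 with the adipocyte score.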

How the data were processed

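RNA of the proximal colon was measured in 12 mice, 6 per genotype, with groups taken from the sample titles. The authors prepared stranded libraries after removal of ribosomal RNA, sequenced them on a NovaSeq, trimmed reads with Trimmomatic, aligned them to mm10 with STAR 2.5.3a and counted reads per gene of an Ensembl annotation with featureCounts. The values deposited by the authors are raw counts, in a table with the exon length of each gene. The treatment of strand and of reads with several alignments is not given in the sources used here.

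Genes reaching 1 CPM in 4 or more libraries were tested with edgeR 4.0.16 in R 4.3.3 (TMM, quasi-likelihood F test over 12 libraries, no covariate, Benjamini-Hochberg over 15952 genes). The SE was the absolute log2 fold change divided by the square root of F. Log2 CPM values were made with a prior count of 2. Within-group correlations used 100000 permutations, two-sided. Alternatives were DESeq2 size factors, total counts, no filter, filterByExpr, DESeq2 1.42.0, limma-voom 3.58.1, the replicate number as a block, a tissue score or an adipocyte score as covariate, and each library left out. The fits were first tested on simulated data. The members and gene lists were chosen with earlier results of these data known. Named genes were the members, EPR, Fgf15, Kl, every called pathway gene, the 2 highest and the most changed gene of each pathway list, the 5 genes most like Klb by each measure, and Adipoq, Plin1, Epcam, Muc2 and Myh11. Further genes were named only after their values had been seen. Counts of libraries differed by more than sampling noise in each of 30 pairs within a group. Promoter windows came from RefSeq (GRCm38.p6), with 5 of 6 members in the table, and no protein sequence was used.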

Additional observations from a re-analysis of the deposited data

Results flagged for a closer look

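Among 38 sets of 6 libraries, each 1 gene or score in 1 group, 11 held a library whose gap to the nearest of the others as a share of the range was above Dixon's 95% critical value for 6 samples, where chance gives about 1.9. For 6 of the 11 the library was EPR cKO 1. Fgfr1 was at 65.2 CPM there, where the rest of its group had 7.84 to 21.4, and Fgfr4 was at 5.93 CPM, where the rest had 11.4 to 14.3. In the same library Lctl was at 1.87 CPM (0.124 to 0.423 in the others), Adipoq at 99.1 CPM (4.10 to 31.3), Plin1 at 71.1 CPM (2.05 to 25.1) and Myh11 at 3194 CPM (395 to 843). Klb, Fgfr2, Fgfr3 and Fgfrl1 had no such library in either group. In EPR cKO 2 Smim31 was at 0.423 CPM (0 to 0.134 in the others), and in EPR cKO 5 Muc2 was at 1071 CPM (1731 to 2023). In EPR fl/fl, Etv5 was at 70.1 CPM in replicate 3 (35.9 to 45.9 in the others), Fabp6 at 17.3 CPM in replicate 1 (2.34 to 6.60) and Fgf1 at 35.3 CPM in replicate 5 (19.3 to 24.8). The cause of these gaps was not tested.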

How the results depend on the processing

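Under 9 alternatives with all libraries, Fgfr3 and Etv5 kept their sign and their side of an adjusted p of 0.05. Of the 6 members, 1 in place of 2 was called with DESeq2 size factors, filterByExpr, the replicate block, the tissue score or the adipocyte score. The adipocyte score, chosen after seeing the data, moved the log2 fold change of Klb to −0.51, of Fgfr1 to 0.56 and of Fgfr4 to −0.13. Genes called higher over the whole table were 39 with total counts, 54 with no filter, 67 with the replicate block, 86 with the tissue score and 17 with the adipocyte score, which left 126 lower, and DESeq2 called 473 lower and 440 higher. In the feedback inhibitor and target list 1 gene, Etv5, was called with total counts, no filter, the replicate block or the adipocyte score (Etv5 and Spry4 with the tissue score), in the bile acid list 1, Fabp6, with total counts, no filter, DESeq2 or the tissue score, and in the adaptor and MAP kinase list 1, Map2k1, with DESeq2. Same-numbered libraries of the groups had deviations that correlated between −0.24 and 0.34, and 2 of 6 in each group correlated best with their own number, so the numbers were not taken to pair the mice. With the replicate block, Klb had a log2 fold change of −1.29, and 178 genes were called lower.

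With 1 library left out, the count of members called lay between 1 and 5, of all genes called lower between 145 and 2273 and higher between 31 and 1178, the highest each time without EPR cKO 1. The call of Klb was lost without any 1 library other than EPR fl/fl 6 and EPR cKO 1. Calls lay between 0 and 1 for FGF ligands and for homologous factors, 0 and 3 for klotho family and modulators, 0 and 3 for adaptors and MAP kinases, 1 and 4 for feedback inhibitors and targets, 0 and 7 for heparan sulfate genes and 0 and 2 for the bile acid list, and the highest counts of 1, 1, 3, 3, 4 and 7 came without EPR cKO 1. The level order of EPR fl/fl could not reach p under 0.05 with 5 libraries, which allow 0.0625 at the lowest, adjusted 0.0781. The log2 differences lay between 0.48 and 0.59 for Fgfr2 over Fgfrl1, 1.28 and 1.44 for Fgfrl1 over Fgfr3, −0.0816 and 0.18 for Fgfr3 over Fgfr1 (−0.02 without replicate 2, −0.01 without replicate 3), 0.79 and 1.06 for Fgfr1 over Fgfr4 and 1.07 and 1.52 for Fgfr4 over Klb. Without division by exon length Fgfr3 over Fgfr1 was −0.18. The r of Fgfr1 with the epithelium list alone was −0.71 (adjusted permutation p = 0.0739) and that of Fgfr3 −0.54 (the same adjusted p), whereas that of Fgfr3 with the tissue score from total counts was 0.0504. The cause of these changes was not tested. Depth limits Klb, which had as few as 17 counts.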
